A study of Rattus norvegicus with 18 samples.

Results

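The endocannabinoid receptor and enzyme genes are Cnr1, Dagla, Daglb, Mgll, Abhd6, Napepld, and Faah, chosen by name, and they make up 7 of the 38445 genes counted. Their RNA was measured in the dorsal hippocampus of 18 adult male Sprague-Dawley rats, with 6 rats in each of 3 groups. Control rats were fed Lieber-DeCarli liquid diet without ethanol. Ethanol rats were fed the same kind of diet with 9% ethanol by volume for 16 days and had no withdrawal (0 h). Withdrawal rats were kept on the 9% ethanol diet for 15 days and were then returned to control diet for 24 h. All rats were wild type, and the tissue was whole dissected dorsal hippocampus with its neurons, glia, and vessels together. The comparisons ask whether the RNA of these genes changes during chronic ethanol feeding and 24 h after it ends.

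Endocannabinoids are lipids that neurons make on demand from their membranes, and that travel back across the synapse to reduce transmitter release. The CB1 receptor, encoded by Cnr1, is the main receptor on presynaptic terminals in the hippocampus. It is known for its high level on the terminals of inhibitory neurons that contain cholecystokinin (CCK) and a lower level on glutamatergic terminals. The ligand 2-arachidonoylglycerol (2-AG) is made by the diacylglycerol lipases of Dagla and Daglb and is broken down by the monoacylglycerol lipase of Mgll and, in part, by ABHD6. The ligand anandamide is made by several routes, one of which uses the phospholipase D of Napepld, and is hydrolysed by the amide hydrolase of Faah.

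Between 30873228 and 42679748 read pairs per rat were assigned to genes. Levels are CPM, counts scaled to the size of the library after TMM normalization, and q is the Benjamini-Hochberg adjusted p of limma-voom over the 17853 genes tested, with a threshold of 0.1. The model held the 3 groups and 3 surrogate variables, which are patterns of variation across the rats that sva derived from the counts and that no label names. The libraries were tagged with index sequences from 3 sets. One set tagged the control rats, another tagged the ethanol rats with withdrawal rats 1 and 2, and the last tagged withdrawal rats 3 to 6. Control against either other group therefore cannot be told apart from the index set. Withdrawal against ethanol is tied to it in part, since withdrawal rats 3 to 6 shared no set with any ethanol rat. The neuronal markers of the hippocampus were present, except that Fibcd1 had at most 2 counts and Npy at most 1 count in any rat. A pair of rats stood apart in their makeup. Withdrawal rat 5 had the lowest summed level of 7 markers of hippocampal principal neurons (784 CPM, against 1211 CPM or more in the other rats). Its 4 choroid plexus markers summed to 26.2 CPM, but those of withdrawal rat 4 were as low (26.3 CPM). Ethanol rat 1 was next lowest for principal neurons (1211 CPM) and had the highest sum of 4 markers of thalamus (1250 CPM), a region that lies next to the dissected tissue. Several group means are given with and without these rats.

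None of the 7 genes was DE (differentially expressed, q < 0.1) in any comparison. The share of all genes tested that were DE was 5.41% for withdrawal vs. control, 0.493% for ethanol vs. control, and 2.72% for withdrawal vs. ethanol. For none of the 7 genes did all rats of one group lie on one side of all rats of another, which held for 1.06%, 1.32%, and 1.22% of all genes in the same order. The closest to the threshold was Abhd6, which was lower in withdrawal than in ethanol rats with a log2 fold change of -0.15 and a q of 0.101 by limma-voom. All 7 genes passed the filter on low counts, which required more than 0.5 CPM in at least 1 rat. Faah did so through 4 rats.

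The level of the genes differed more from gene to gene than from group to group. Compared per kilobase of exon, Mgll had the highest level in control rats, with 59.9 ± 2.77 CPM per kb (SD, n = 6), followed by Cnr1 with 44.6 ± 4.77 and Dagla with 39.6 ± 3.92 CPM per kb. Abhd6 stood at 16.5 ± 1.04, Daglb at 9.00 ± 0.78, Napepld at 6.21 ± 0.77, and Faah at 0.12 ± 0.03 CPM per kb. The value of Faah is not its true level, since read pairs that match both annotated copies of the gene were not counted. The order of the 7 means was the same in the ethanol and withdrawal groups. In control rats the ranges of neighbours in this order did not overlap, except for Cnr1 and Dagla. In ethanol rats the ranges of Mgll and Cnr1, of Cnr1 and Dagla, and of Daglb and Napepld overlapped, and in withdrawal rats those of Mgll and Cnr1 and of Cnr1 and Dagla. Within single rats, Cnr1 was above Dagla in 6 of 6 control, 4 of 6 ethanol, and 5 of 6 withdrawal rats.

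**Figure D1:**
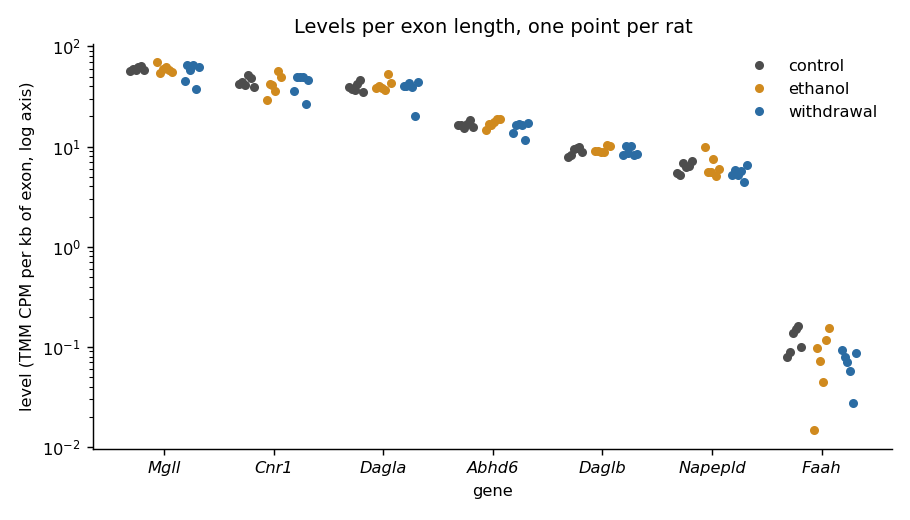
Level of each gene in CPM per kilobase of exon (log axis), with 1 point per rat and the 3 groups side by side for each gene. Mgll, Cnr1, and Dagla lie at the top in all groups, and the counted level of Faah, from which pairs matching both of its annotated copies are missing, lies far below the other 6 genes.

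Cnr1 (GeneID 25248, chromosome 5, 49307584 to 49333064 of Rnor_6.0, plus strand) encodes the receptor. Its level in control rats ran from 244 to 320 CPM with a median of 267 CPM. In ethanol rats it ran from 181 to 350 CPM (median 258), and in withdrawal rats from 163 to 303 CPM (median 293). The groups overlapped widely, and the lowest values belonged to withdrawal rat 5 (163 CPM) and ethanol rat 1 (181 CPM). The control rats were the least spread, with an SD of 29.5 CPM against 59.2 in ethanol and 58.1 in withdrawal rats. The mean was 276 CPM in control, 262 in ethanol, and 262 in withdrawal rats. Without ethanol rat 1 the ethanol mean was 278 CPM, and without withdrawal rat 5 the withdrawal mean was 282 CPM (n = 5 each), so that the direction of both differences from control rested on single rats. Withdrawal against control gave a log2 fold change of -0.03 (95% confidence interval -0.12 to 0.05, q = 0.694 by limma-voom). Ethanol against control gave 0.03 (interval -0.06 to 0.13, q = 0.80 by limma-voom), while without surrogate variables it was -0.10. Withdrawal against ethanol gave -0.07 (interval -0.16 to 0.03, q = 0.489 by limma-voom). As a percent of the control level, the interval for withdrawal ran from -7.98% to 3.77%.

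The 2-AG synthesis genes differed from each other in level, and neither passed the threshold. Dagla (GeneID 309207, chromosome 1, 226297013 to 226353712, minus strand), which encodes the lipase that makes most 2-AG at adult synapses, had levels from 203 to 263 CPM in control rats (median 221 CPM). Its levels ran from 209 to 308 CPM in ethanol rats (median 226 CPM) and from 115 to 251 CPM in withdrawal rats (median 233 CPM). Withdrawal rat 5 was alone at 115 CPM, since the other 5 withdrawal rats lay between 226 and 251 CPM. The mean of withdrawal rats was 217 ± 51.1 CPM with this rat and 238 ± 10.6 CPM (n = 5) without it, against 228 ± 22.5 CPM in control rats. Dagla had a log2 fold change of -0.00 for withdrawal against control (interval -0.14 to 0.13), which was 0.05 without withdrawal rat 5. It was 0.12 for ethanol against control (interval -0.02 to 0.26, q = 0.482 by limma-voom) and -0.12 for withdrawal against ethanol (interval -0.27 to 0.02, q = 0.390 by limma-voom).

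Daglb (GeneID 304289, chromosome 12, 13113073 to 13157748, minus strand), the paralog of Dagla, had levels from 24.8 to 31.03 CPM in control, 27.2 to 32.2 CPM in ethanol, and 25.7 to 31.9 CPM in withdrawal rats. The groups lay on top of each other, with means of 28.1, 29.2, and 28.0 CPM. Its log2 fold changes were -0.01, 0.07, and -0.07 in withdrawal against control, ethanol against control, and withdrawal against ethanol. Per kilobase, Dagla exceeded Daglb 4.41 ± 0.39 times in control, 4.44 ± 0.40 times in ethanol, and 4.23 ± 1.03 times in withdrawal rats. The lowest ratio of any rat was 2.43 in withdrawal rat 5, in which Dagla was low and Daglb was not far from the other rats.

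Both 2-AG hydrolysis genes had lower means in withdrawal than in the other groups, within the spread between rats. For both genes most of the difference from control came with withdrawal rat 5, and for Mgll also most of that from ethanol. Mgll (GeneID 29254, chromosome 4, 120671436 to 120773458, plus strand) encodes the main 2-AG hydrolase of brain. Its level was between 243 and 273 CPM in control rats (median 252 CPM), between 231 and 295 CPM in ethanol rats (median 249 CPM), and between 160 and 275 CPM in withdrawal rats (median 253 CPM). The control rats were close together, and the withdrawal rats were spread by withdrawal rats 5 (160 CPM) and 1 (193 CPM). The means were 255 ± 11.8, 254 ± 22.9, and 235 ± 47.7 CPM, and the withdrawal mean was 249.8 ± 33.8 CPM (n = 5) without withdrawal rat 5. Without ethanol rat 1 the ethanol mean was 245 ± 12.5 CPM (n = 5). On the log2 scale the fold change of Mgll was -0.08 for withdrawal against control (interval -0.24 to 0.07, q = 0.551 by limma-voom) and -0.08 for ethanol against control, and -0.01 for withdrawal against ethanol.

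Abhd6 (GeneID 305795, chromosome 15, 18647903 to 18695133, minus strand) encodes a postsynaptic serine hydrolase. Its levels in control rats were 72.4, 71.8, 68.0, 74.6, 81.2, and 69.8 CPM for rats 1 to 6. The ethanol rats had 64.0, 74.5, 72.1, 77.1, 83.7, and 83.1 CPM. The withdrawal rats had 59.6, 72.5, 74.0, 72.6, 51.4, and 75.3 CPM. All 6 withdrawal rats were below the ethanol mean of 75.7 ± 7.38 CPM, but only withdrawal rats 1 and 5 were below every ethanol rat, so the groups overlapped. The withdrawal mean was 67.6 ± 9.76 CPM, and 70.8 ± 6.39 CPM (n = 5) without withdrawal rat 5, while the ethanol mean was 78.1 ± 5.16 CPM (n = 5) without ethanol rat 1. Between withdrawal and ethanol the log2 fold change was -0.15 (SE 0.04, interval -0.24 to -0.06), with an unadjusted p of 0.0028 and a q of 0.101 by limma-voom. An exact permutation test of the 6 ethanol and 6 withdrawal rats, which uses no surrogate variables, gave a two-sided p of 0.152. A smaller unadjusted p than that of Abhd6 was found for 2.77% of all genes in this comparison. For withdrawal against control the fold change was -0.07 (q = 0.321 by limma-voom), and for ethanol against control it was 0.08 (q = 0.444 by limma-voom). In a test across all 3 groups at once (limma F test), Abhd6 had a q of 0.125, the lowest of the 7 genes.

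The q of Abhd6 fell on either side of the threshold in other models. The log2 fold change between withdrawal and ethanol was negative in all 13 other models, from -0.19 to -0.13. The q was below 0.1 in 4 of them. It reached 0.773 by limma-voom within one index set, a model of 6 ethanol and 2 withdrawal rats without surrogate variables. When each of the 18 rats was left out in turn, the fold change stayed between -0.17 and -0.13, and q was below 0.1 in 4 of the models. It was 0.0423 without ethanol rat 5, 0.0731 without ethanol rat 1, 0.0760 without withdrawal rat 4, and 0.0988 without withdrawal rat 2 (limma-voom). The highest such q was 0.373 without withdrawal rat 6.

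**Figure D2:**
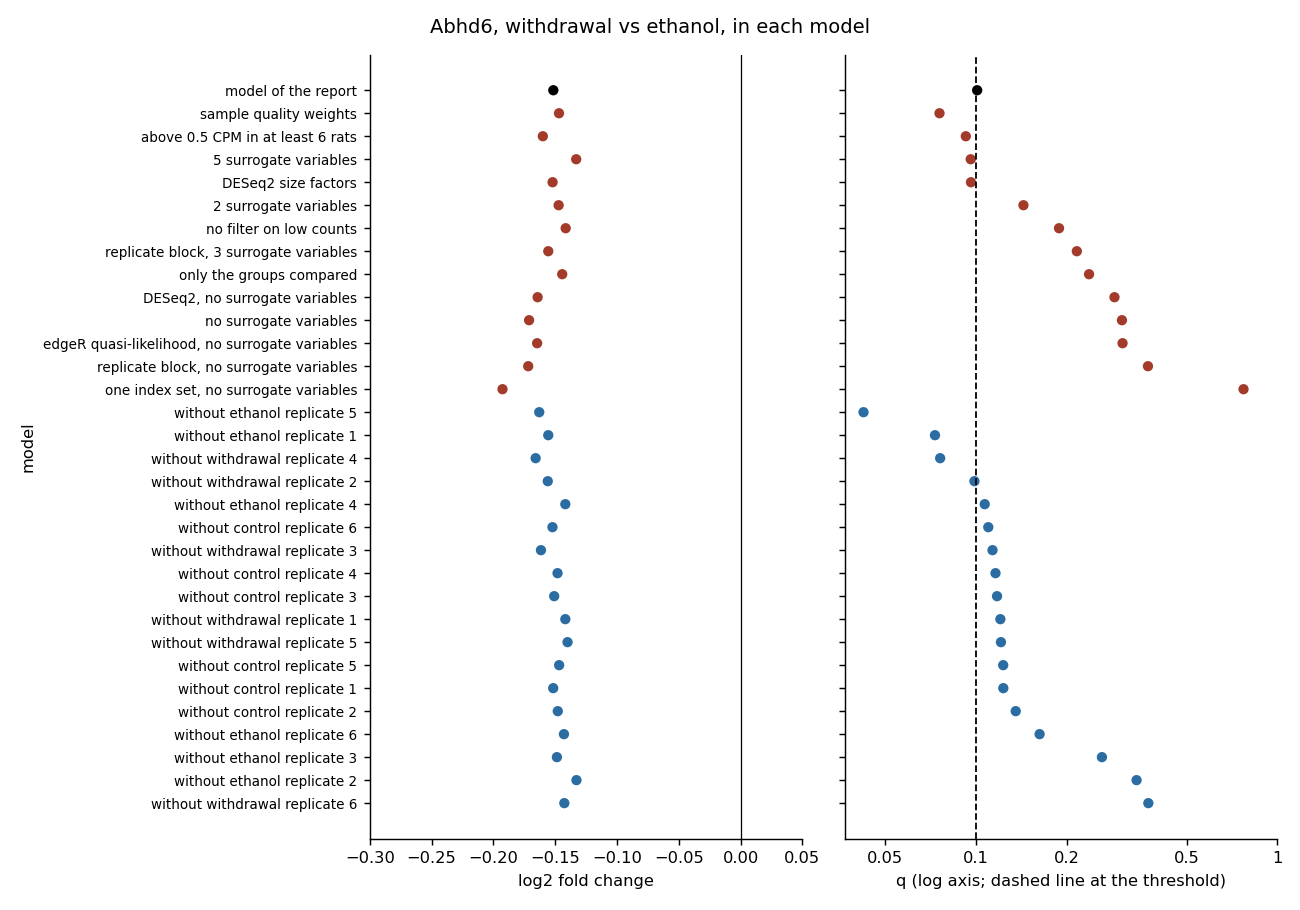
Log2 fold change of Abhd6 between withdrawal and ethanol rats (left) and its q (right, log axis, dashed line at 0.1), with 1 point per model: the model of the report in black, other models in red, and models without 1 rat in blue. All fold changes are negative, and the q values lie on both sides of the threshold.

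For anandamide, Napepld (GeneID 296757, chromosome 4, 9965323 to 10004650, plus strand) had levels from 37.2 to 51.4 CPM in control rats (median 45.6 CPM), from 36.6 to 70.7 CPM in ethanol rats (median 41.9 CPM), and from 32.1 to 46.7 CPM in withdrawal rats (median 39.6 CPM). The highest value was that of ethanol rat 1 (70.7 CPM), and the groups overlapped. The ethanol mean was 47.6 ± 12.9 CPM with this rat and 43.0 ± 6.84 CPM (n = 5) without it, against 44.8 ± 5.52 CPM for control and 39.6 ± 5.01 CPM for withdrawal (41.1 ± 3.81 CPM, n = 5, without withdrawal rat 5). Napepld had a log2 fold change of -0.13 for withdrawal against control (interval -0.30 to 0.04, q = 0.388 by limma-voom). For ethanol against control it was -0.16 (interval -0.34 to 0.02) in the model with surrogate variables and 0.06 without them, and for withdrawal against ethanol it was 0.03 with and -0.23 without them. The direction of the ethanol comparisons of Napepld thus depended on the model.

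Faah could be measured only poorly. The annotation of Rnor_6.0 holds a pair of Faah rows on chromosome 5 whose 15 exons have the same sizes (3870 bases in all), GeneID 100911581 at 134852899 to 134872095 and GeneID 29347 at 134330204 to 134349400. Only uniquely mapped read pairs were counted, so pairs that match both copies were lost. The first row held 2 to 23 counts per rat with a median of 12.5, and the second held 0 to 1 count. The level of the first row was 0.46 ± 0.14 CPM for control, 0.32 ± 0.19 CPM for ethanol, and 0.27 ± 0.09 CPM for withdrawal. All 6 withdrawal rats were below the control mean, and 3 of them were below every control rat. Withdrawal against control had a log2 fold change of -0.68 (interval -1.29 to -0.07) and a q of 0.203 by limma-voom. It passed the filter on low counts through control rats 3, 4, and 5 and ethanol rat 6 and through no withdrawal rat, so this value is given as a description. How many read pairs were lost to matches in both copies was not measured, and the level of Faah is therefore not known from these counts.

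**Figure D3:**
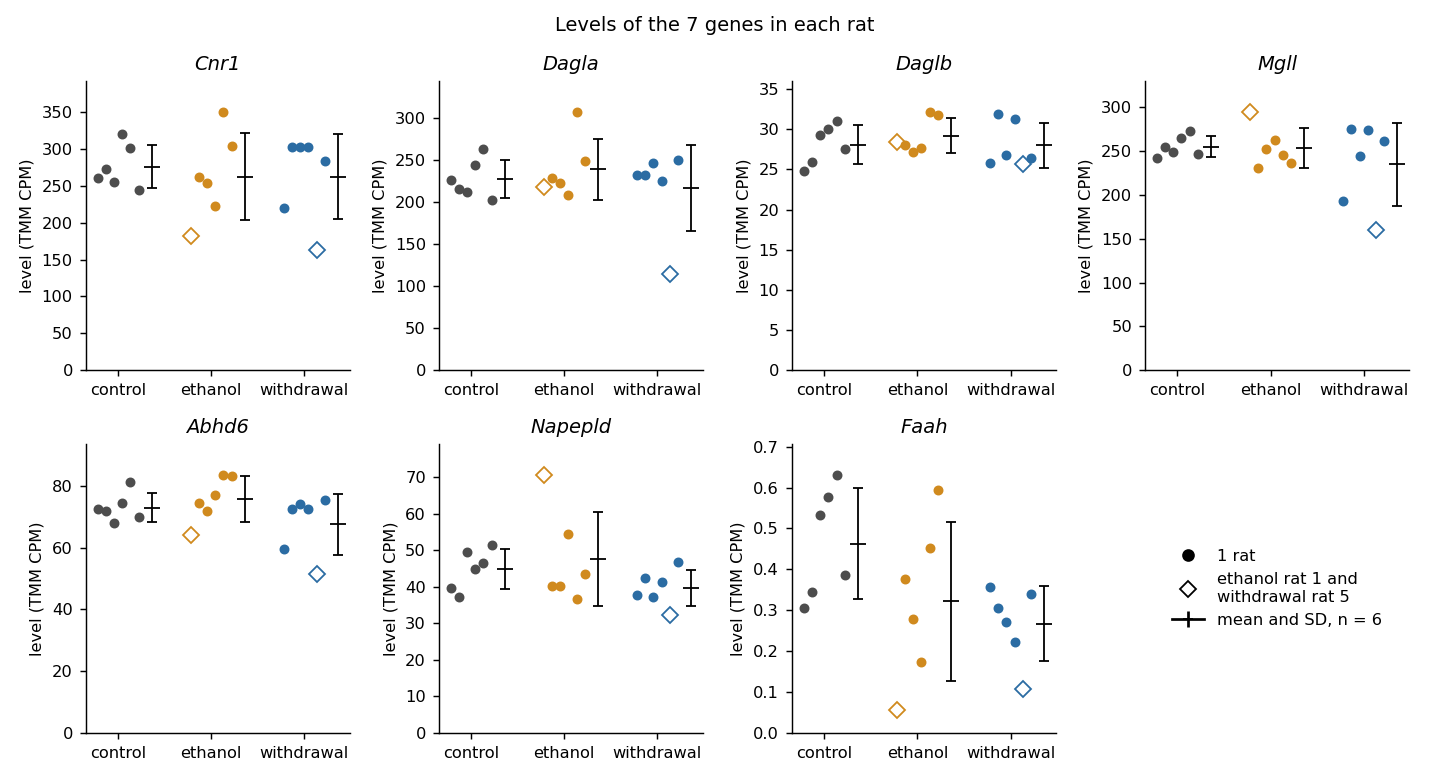
Level of each of the 7 genes in CPM in each rat, with the mean and SD of the 6 rats of a group as bars beside the points and open diamonds for ethanol rat 1 and withdrawal rat 5. The groups overlap for every gene, and withdrawal rat 5 lies alone at 115 CPM for Dagla.

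As a list, the 7 genes had negative log2 fold changes between withdrawal and control in 7 of 7 cases, with a median of -0.07 (-0.05 for the 6 genes other than Faah), against a median of 0.00 over all genes tested. For ethanol against control 4 were positive and 3 negative (median 0.03), and for withdrawal against ethanol 6 of 7 were negative (median -0.07). No withdrawal rat brought Faah past the filter. Without it, 6 of 6 genes were negative for withdrawal against control and 5 of 6 for withdrawal against ethanol. Of all 17853 genes tested, 8901 and 8944 were negative in the same order. The comparisons share groups of rats, and 5 of the 7 genes were lowest of all 18 rats in the same animal, withdrawal rat 5. Without that rat, the withdrawal to control fold change was positive for Dagla (0.05) and Daglb (0.0054), and it was -0.0038 for Cnr1, -0.03 for Mgll, -0.05 for Abhd6, -0.07 for Napepld, and -0.66 for Faah. The median absolute fold change of the 7 genes was 0.07, 0.08, and 0.07 in the 3 comparisons, and that of all genes was 0.09, 0.08, and 0.09.

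**Figure D4:**
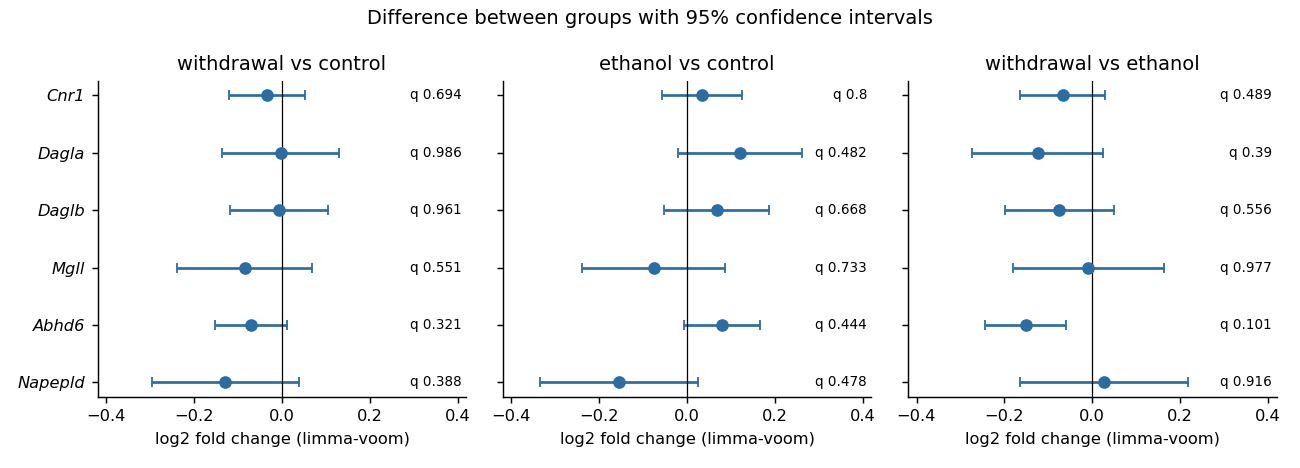
Log2 fold changes of the 6 genes other than Faah in the 3 comparisons (points) with 95% confidence intervals (bars) and q from limma-voom. The intervals include 0 in every case except Abhd6 between withdrawal and ethanol, where the interval runs from -0.24 to -0.06 and q is 0.101.

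The genes differed in how closely they followed the summed neuronal markers of the samples, although their correlations were not compared by a test. Cnr1 rose and fell with the summed markers of hippocampal principal neurons (Prox1, Wfs1, Neurod2, Neurod6, Zbtb20, Camk2a, and the barely detected Fibcd1), of which Camk2a gave the most. Over the 18 rats, Pearson's r between the level of Cnr1 and this sum was 0.96, and Spearman's rho was 0.88. Here and below, both were taken on the log2 scale for r. Each had a permutation p of 1e-05, the smallest that 100000 permutations can give. After Benjamini-Hochberg adjustment over the 12 relations computed, these were 6e-05 and 0.00012. The r was 0.92 without withdrawal rat 5 and ethanol rat 1. It was 0.96 within the 6 control rats, which were 1 index set, and 0.98 within the 8 ethanol and withdrawal rats that shared a set. The last set held 4 withdrawal rats and gave no value. These relations were chosen after the data had been seen. A lower share of neurons and less RNA per neuron cannot be told apart in such samples.

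Dagla and Abhd6 followed the same sum with r of 0.86 each (rho of 0.78 and 0.70, permutation p of 1e-05 and 7e-05, adjusted 6e-05 and 0.00024). Without the same 2 rats their r was 0.69 and 0.64. Mgll had an r of 0.64 (permutation p 0.0156, adjusted 0.0312), but a rho of 0.27 (permutation p 0.279) and an r of 0.89 within the control rats but of -0.04 within those 8 rats, so this relation did not hold in both sets. Without withdrawal rat 5 and ethanol rat 1 the r of Mgll was 0.60. Daglb had an r of 0.47 (permutation p 0.0419, adjusted 0.0629), which was 0.50 without those rats, 0.55 within the control rats, and 0.75 within the 8 rats. Napepld had an r of -0.02 over all rats (permutation p 0.918), of -0.22 within the control rats, and of -0.66 within the 8 rats that shared a set.

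**Figure D5:**
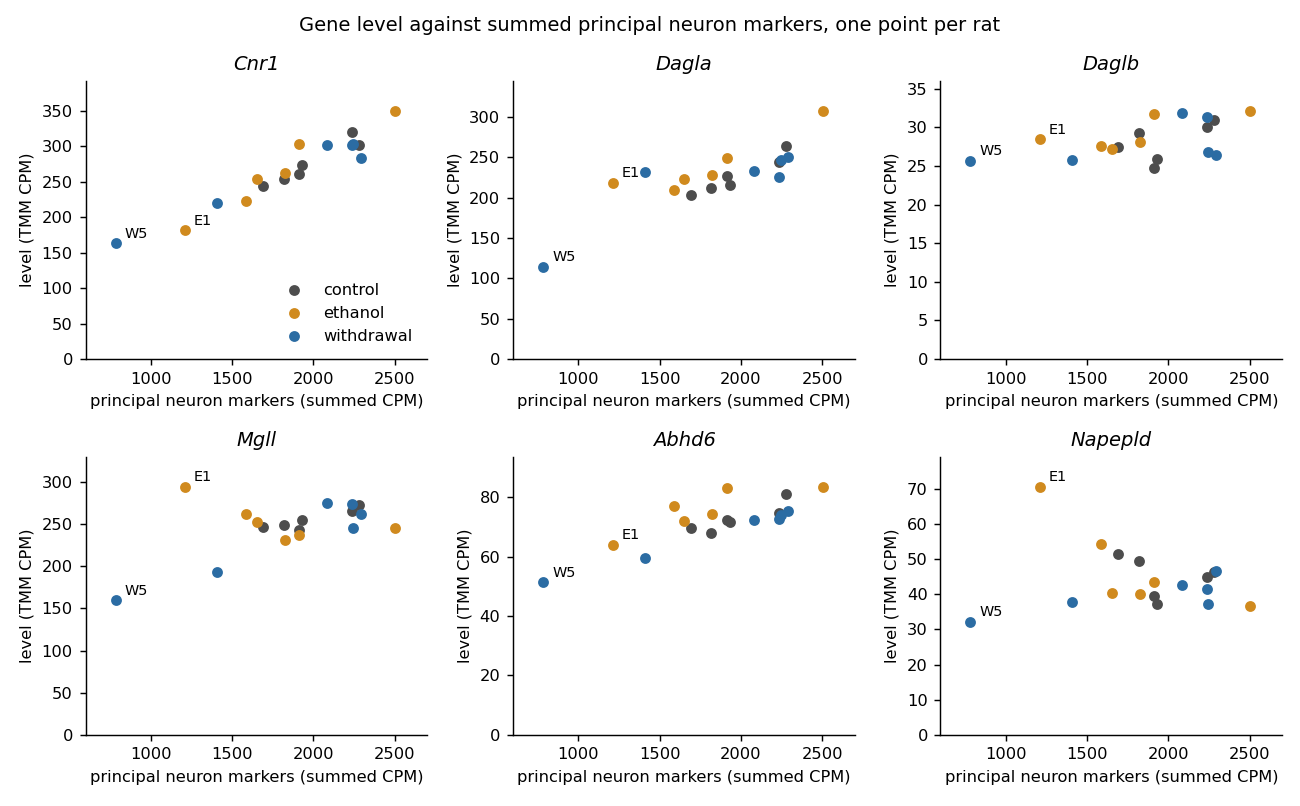
Level of 6 genes (CPM) against the summed level of principal neuron markers (CPM), with 1 point per rat, coloured by group, and with ethanol rat 1 (E1) and withdrawal rat 5 (W5) named. The points of Cnr1 lie along one line in all 3 groups (r 0.96 of the log2 values), and those of Napepld do not (r -0.02 of the log2 values).

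With the thalamus markers (Tcf7l2, Prkcd, Slc17a6, Rora) the signs of Cnr1 and Napepld were opposite. The r of Dagla (-0.44), Daglb (-0.37), Mgll (-0.09), and Abhd6 (-0.49) was negative too. Their adjusted permutation p ran from 0.0629 for Abhd6 to 0.791 for Mgll. For Cnr1 the r was -0.81 (rho -0.83, permutation p 8e-05, adjusted 0.00024), and -0.74 without ethanol rats 1 and 4, which were farthest from the median. For Napepld it was 0.66 (rho 0.51, permutation p 0.00363, adjusted 0.00871) and dropped to 0.22 without those rats, on which the relation rests over all rats. Within the 6 control rats it was 0.82, and within the 8 rats that shared a set, which include ethanol rats 1 and 4, 0.89. The 7 markers listed for inhibitory neurons of the CCK type (Cck, Vip, Slc17a8, Htr3a, Gad1, Gad2, Slc32a1), most of whose sum came from Gad1, Gad2, and Slc32a1, which all inhibitory neurons share, summed to 779 CPM in withdrawal rat 5. This was the highest of all rats, against 456 to 595 CPM in control rats, while its Cnr1 was the lowest. The markers of other interneurons (Pvalb, Sst, and the barely detected Npy) were also highest there, at 121 CPM. The part of tissue makeup in the differences between groups was not tested.

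The genes whose levels were most like each member over the 18 rats are given as a description, by Pearson's r of log2 CPM, and the rats share their libraries and depth across genes. For Cnr1 they were Cpne6, Nr4a3, and Neurod6 (each 0.98), of which Neurod6 is one of the principal neuron markers. For Dagla they were Lrrn2 (0.97), Spata2L, and Galnt17 (0.95 each), which were 0.91, 0.86, and 0.84 without withdrawal rat 5, and for Abhd6 Epn2, Dpy19l3, and Tle1 (0.95 each), which were 0.90 each without it. For Mgll they were Tmem158 (0.94), Yjefn3 (0.93), and Rnf112 (0.92), but without withdrawal rat 5 these were 0.87, 0.81, and 0.83. Napepld was closest to Grid2ip (0.94), Plekhg1, and Socs6 (0.93 each), and Daglb to Syt11 (0.81), LOC102546709, and Zfp251 (0.80 each). Between members, the highest r were those of Abhd6 with Cnr1 (0.83), Abhd6 with Dagla (0.82), and Cnr1 with Dagla (0.79), which were 0.72, 0.59, and 0.68 without withdrawal rat 5. The r of Dagla and Mgll went from 0.65 to -0.05 without that rat.

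Promoter sequences were at hand for 5 of the 7 genes, from RefSeq with the build GRCr8, whose coordinates are not those of the counts. The 250 bases before the start of Abhd6, the gene closest to the threshold, of Mgll, the other 2-AG hydrolase, and of Napepld, whose r with the neuronal markers was near 0 over all rats, are shown 5′ to 3′ on the strand of the gene. Capitals mark GC boxes (GGGCGG) and CCAAT boxes (CCAAT), each on either strand. They lie at chr15:19337194-19337443 (minus strand), chr4:122749186-122749435 (plus strand), and chr4:14253010-14253259 (plus strand).
Abhd6: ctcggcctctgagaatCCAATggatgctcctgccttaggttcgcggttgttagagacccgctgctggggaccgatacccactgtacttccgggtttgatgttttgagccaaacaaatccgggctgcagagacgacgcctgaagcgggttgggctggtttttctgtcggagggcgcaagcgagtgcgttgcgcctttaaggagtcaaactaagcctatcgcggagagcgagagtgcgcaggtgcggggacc
Mgll: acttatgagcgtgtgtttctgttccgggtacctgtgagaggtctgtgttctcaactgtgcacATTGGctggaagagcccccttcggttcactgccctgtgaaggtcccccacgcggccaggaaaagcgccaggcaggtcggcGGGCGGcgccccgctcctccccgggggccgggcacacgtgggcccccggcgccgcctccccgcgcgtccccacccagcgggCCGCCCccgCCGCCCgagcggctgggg
Napepld: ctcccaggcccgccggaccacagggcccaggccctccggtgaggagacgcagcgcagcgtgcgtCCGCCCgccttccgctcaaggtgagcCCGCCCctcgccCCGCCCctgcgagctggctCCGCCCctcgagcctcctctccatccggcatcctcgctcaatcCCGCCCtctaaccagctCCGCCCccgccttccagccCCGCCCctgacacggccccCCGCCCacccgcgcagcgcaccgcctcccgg
The Napepld window held 8 GC boxes and the Mgll window 3, and the only one of Abhd6 lay after the start, outside the bases shown. Mgll and Abhd6 each had 1 CCAAT box. Among the 33469 promoters of the table, over 250 bases before and 50 after the start, 33.1% held a GC box and 37.5% a CCAAT box. The motif TTCNNNGAA, to which STAT factors are known to bind, occurred in 0 of the 5 promoters and in 8.87% of all. These are matches of letters and not sites.

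Of 23 other genes of the pathway, 19 passed the filter, and Gpr55, Gpr18, Gpr119, and Gdpd3 did not. Between withdrawal and control, 0 of the 19 were higher and 1 was lower at q < 0.1, against 2.85% and 2.55% of all genes. The median log2 fold change of the 19 genes was 0.0026 in that comparison, with 10 positive and 9 negative values.

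Cnrip1 (GeneID 364208, chromosome 14, 100217547 to 100247235, plus strand) encodes a protein that binds the tail of the CB1 receptor. Its level ran from 75.3 to 90.5 CPM in control (median 77.6), from 68.6 to 94.1 CPM in ethanol (median 76.3), and from 65.8 to 77.7 CPM in withdrawal rats (median 70.4). The withdrawal rats were the lowest group and overlapped with both others. The level fell by 0.17 on the log2 scale from control to withdrawal (SE 0.04, q = 0.0543 by limma-voom, exact permutation p 0.0216). It was also lower in withdrawal than in ethanol rats, by a log2 fold change of -0.18 (q = 0.0956 by limma-voom, exact permutation p 0.188), the only pathway gene DE in that comparison, in which 1.49% of all genes were lower and 1.23% higher in withdrawal. Without surrogate variables the log2 fold change of Cnrip1 was -0.17 with a q of 0.363 in the first and -0.12 with a q of 0.382 in the second comparison (limma-voom). Without withdrawal rat 6 the q of Cnrip1 was 0.219 in the first and 0.397 in the second comparison (limma-voom).

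In ethanol against control, 0 of the 19 genes were DE (0.336% of all genes were higher and 0.157% lower in ethanol). Gde1, a phosphodiesterase of another anandamide route, was higher in all 6 ethanol rats (111.3 to 134 CPM) than in all 6 control rats (98.8 to 110.6 CPM). Its log2 fold change was 0.15 (q = 0.148 by limma-voom), and the gene is named here because its groups did not overlap, which held for 1 of the 19 genes and for 1.32% of all genes. Withdrawal against ethanol gave -0.15 (q = 0.110 by limma-voom), with 5 of 6 withdrawal rats below all ethanol rats. In the limma F test across the 3 groups, in which 5.6% of all genes had a q below 0.1, Gde1 had a q of 0.0890 and Cnrip1 a q of 0.0662. In the model with surrogate variables, the largest positive fold change between ethanol and control was that of Pla2g4e, an N-acyltransferase that makes anandamide precursors (0.41, q = 0.158 by limma-voom), and the most negative was that of Trpv1, a channel that anandamide can open (-0.22, q = 0.450 by limma-voom). The plain log2 difference of Pla2g4e was 0.19, below the 0.23 of Gde1, and that of Ptgs2 (-0.28) was more negative than that of Trpv1 (-0.27). This order was thus that of the model and not of the plain differences. Ptgs2, the inducible cyclooxygenase that also oxidises 2-AG, had the largest positive value between withdrawal and control (0.66, q = 0.253 by limma-voom) and for withdrawal against ethanol (0.64, q = 0.370 by limma-voom). Withdrawal rat 1 had 119 CPM of Ptgs2, while the median of the withdrawal rats was 27.6 and that of the control rats 20.8 CPM. Without that rat, the withdrawal mean fell from 39.98 to 24.2 CPM, and the plain log2 difference from control was 0.14 in place of 0.53. Naaa, an acid amidase of N-acylethanolamines, had the most negative value between withdrawal and ethanol (-0.34, q = 0.113 by limma-voom). Whether any of these differences is related to the levels of the 7 genes was not tested.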

How the data were processed

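Hippocampal RNA of 18 rats was sequenced from stranded mRNA libraries. Per the submitters' notes and the file headers, the authors used STAR 2.5.2a with the genome Rnor_6.0, and the deposited values are raw read pair counts for each gene from featureCounts 1.5.0, by strand, on exons, without pairs that mapped to several places. The files list identifiers, and 29322 of 38445 were named from the RefSeq table of GRCr8. Counts were scaled by TMM (edgeR 4.0.16), and the 17853 genes above 0.5 CPM in 1 rat or more entered limma 3.58.1 (voom) in one model of 3 groups with 3 surrogate variables (sva 3.50.0, log2 CPM with a prior count of 2). The study's methods do not give the number of surrogate variables, and 3 follows an earlier analysis of these files. Single values were compared by two-sided exact permutation tests over 924 splits, and correlations by 100000 permutations. R 4.3.3, Python 3.11.15, scipy 1.17.1, numpy 2.4.6, pandas 2.3.3, and matplotlib 3.10.9 were used. The tests were tested on simulated data.

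The groups were taken from the labels, and no label or count showed a rat to be sampled more than once (lowest chi-square per degree of freedom 5.74 in 45 pairs of rats of a group). The index sets were read from the names of the deposited data. The 7 genes, the other pathway genes, the markers, and the tests were chosen with earlier results of these data known. The named genes were the 7 members, pathway genes past q 0.1 or with groups that did not overlap, the highest and lowest pathway fold change of each comparison, and the 3 genes most like each member. One item of the pathway list is not reported here. As alternatives, the number of surrogate variables was changed, and the data were fitted with edgeR and DESeq2 1.42.0, with other scalings and filters, quality weights, models of the groups compared, of one index set, or with a replicate block, a stricter threshold, and leaving out each rat.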

Additional observations from a re-analysis of the deposited data

Results flagged for a closer look

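Of 27 groups of 6 rats tested for a value far from the others, 1 stood out. In withdrawal rat 5, Dagla was at 115 CPM, while the other 5 withdrawal rats lay between 226 and 251 CPM, so that its gap to the nearest rat was 0.816 of the range of the group, above Dixon's critical value at the 95% level. Chance flags about 1 in 20 such groups. The same rat had the lowest sum of principal neuron markers (784 CPM) and the fewest choroid plexus counts (26.2 CPM, close to the 26.3 CPM of withdrawal rat 4), whose part in the low Dagla level was not tested.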

How the results depend on the processing

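In the models that did not leave out a single rat, 0 of the 7 genes passed the threshold between withdrawal and control or between ethanol and control under any alternative. Between withdrawal and ethanol the number rose from 0 to 2 with 5 surrogate variables (Abhd6, and Dagla with a q of 0.0981 by limma-voom) and to 1 (Abhd6) with DESeq2 size factors, the filter of 6 rats, or quality weights. The number of all genes DE in these models was 871, 498, 511, and 1073, against 486. Leaving out 1 rat gave 0 to 1, with 1 (Abhd6) without ethanol rat 1, ethanol rat 5, withdrawal rat 2, or withdrawal rat 4, where 552, 1800, 1009, and 725 of all genes were DE. The cause of these moves was not tested.

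Signs turned in 25 of the 256 values of the 7 genes in those models, which include the ones of only some groups or of one index set, and in 26 of 378 with 1 rat left out, and none that turned had q below 0.1. Between withdrawal and control the log2 fold change of Dagla was 0.028 without a filter, that of Daglb 0.0018 with 2 surrogate variables, and that of Mgll 0.011 with 5. Without surrogate variables (limma-voom, edgeR, DESeq2, and limma-voom with the replicate block) Cnr1 was -0.097, -0.073, -0.075, and -0.098 and Napepld 0.057, 0.087, 0.084, and 0.062 between ethanol and control. Between withdrawal and ethanol, Napepld was -0.23, -0.26, -0.26, and -0.24 in the same models. Within one index set it was -0.20, Cnr1 was 0.0067, and Faah 0.33. Cnr1 was 0.00050 with edgeR and 0.00047 with DESeq2 in that comparison. Mgll was 0.053 with 5 surrogate variables, 0.0053 without a filter, 0.012 in the model of only those groups, 0.0047 with quality weights, and 0.0046 with the replicate block and 3 surrogate variables. Over the models that left out 1 rat, the withdrawal to control fold change ran from -0.065 to 0.0087 for Cnr1, from -0.071 to 0.061 for Dagla, and from -0.048 to 0.038 for Daglb, and that of withdrawal to ethanol from -0.058 to 0.045 for Mgll and from -0.037 to 0.083 for Napepld. Faah dropped out under the filter of 6 rats.

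Of the other pathway genes, 1 was DE between withdrawal and control, which became 0 without surrogate variables, with edgeR, DESeq2, no filter, either replicate block, or q < 0.05, and 2 in the model of only those groups. Over all genes, the number DE in that comparison went from 965 to 41, 33, 435, 486, 941 (block with 3 surrogate variables), 0 (block without), 370, and 1162 in these models. Between ethanol and control 0 became 2 with 5 surrogate variables, 1 with DESeq2, and 3 with quality weights, where 322, 431, and 440 of all genes were DE, against 88. Between withdrawal and ethanol 1 became 5 with 5 surrogate variables, 3 with quality weights, and 2 with DESeq2 (1443 of all genes). There it became 0 with 2 surrogate variables, DESeq2 size factors, no filter, only those groups, either replicate block, one index set, or q < 0.05. Leaving out 1 rat gave 0 to 3 between withdrawal and control (0 without withdrawal rat 6 or control rats 3, 4, or 6, and 3 without withdrawal rat 2), where the number of all genes ran from 23 without withdrawal rat 6 to 1911 without withdrawal rat 2. It gave 0 to 2 between ethanol and control (2 without ethanol rat 5, and 1 without ethanol rat 4 or withdrawal rat 5) and 0 to 4 between withdrawal and ethanol (4 without ethanol rat 5, 3 without withdrawal rat 4, and 2 without withdrawal rat 2). In that last comparison it stayed at 1 only without control rat 4, ethanol rat 4, or withdrawal rat 5.

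Rats of different groups share only a replicate number. In 18 pairs of such rats the correlation of deviations ran from -0.32 to 0.38, and 4 rats correlated best with their own number. With the replicate block, 0 of the 7 genes were DE in each comparison. Counts were low for Faah (at most 23 per rat), for Cnr2 (at most 59), and for the 4 pathway genes below the filter (at most 9).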
